A study of Gossypium with 24 samples.

Results

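Roots of the cotton variety 4847, which the submitters describe as sensitive to flooding, were followed from the end of waterlogging into the first day after drainage. The comparison rests on 6 of the 24 RNA sequencing libraries of the series, chosen by their labels alone. The 3 libraries of the later time came from seedlings that had stood waterlogged in darkness for 96 h and were then drained and returned to light for 24 h (24 h). The 3 libraries of the earlier time came from seedlings taken when the same 96 h of dark waterlogging ended (0 h). The other groups used are waterlogged roots of the variety 9001, described as tolerant, and control roots of both varieties that were kept dark for 96 h without waterlogging, at 24 h (re-lit) and at 0 h (still dark), with 3 libraries each. All seedlings were at the four-leaf stage, no agent other than water and light was applied, and whole roots were sampled. Drainage, light and 24 h of elapsed time came together, so they cannot be told apart in waterlogged roots alone, and fewer cells of a type and less RNA per cell cannot be told apart in whole-root RNA.

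Waterlogged soil holds little oxygen, because gases diffuse slowly in water. Roots then make their energy mainly by glycolysis and fermentation, hold back costly processes such as growth and protein synthesis, and express a set of low-oxygen genes that includes alcohol dehydrogenase and pyruvate decarboxylase. Drainage brings oxygen back quickly, and plants are known to meet it with new oxidative stress, loss of water and a restart of growth. The study's title names GABA, an amino acid made by glutamate decarboxylase that feeds the tricarboxylic acid cycle, as a subject of this recovery. The files pair no gene ID with a name, so none of these genes could be picked out, the root label could not be checked against marker genes, and the changes are described below by gene ID, by class of gene and by gene property.

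Recovery moved much of the measured transcriptome of 4847. Of 50638 genes tested, 13936 (27.5%) rose and 11813 (23.3%) fell at least 2-fold in waterlogged roots at 24 h relative to 0 h (edgeR quasi-likelihood test, Benjamini-Hochberg adjusted p under 0.05), which makes 50.8% called in either direction. The changes were large. The median riser rose by 2.11 on the log2 scale and the median faller fell by 2.02, and 2007 risers and 1635 fallers changed at least 16-fold. At 24 h all 3 libraries lay above all 3 libraries of 0 h for 17912 genes (35.4% of those tested) and below them for 16697 (33.0%), and the libraries of the times overlapped for 16029 (31.7%). Without the 2-fold condition 19406 genes (38.3%) were higher and 17327 (34.2%) lower, 72.5% in either direction.

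The balance of risers and fallers depended on the scaling. Risers were 54.1% of the 2-fold calls with TMM scaling, and 69% when counts were scaled by library totals alone, where 18562 genes rose and 8339 fell. The median change of all tested genes was 0.09 on the log2 scale with TMM and 0.54 with library totals, so the gene classes below are read against that median. Waterlogged 4847 at 24 h had the smallest libraries of the series, with 22035053 ± 539319 counts (SD, n = 3) against 36512178 ± 385402 in waterlogged 4847 at 0 h. It also had the widest spread between replicates, a biological coefficient of variation of 14.4% against 10.6% at 0 h and 5.82% to 11.4% in the other 6 groups. The fit shares one spread over all groups, and on the 6 libraries alone 11449 genes rose and 10359 fell, of 40936 tested.

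A large part of the RNA pool changed hands. The risers held between 40.02% and 40.2% of all counts in the 3 libraries of waterlogged 4847 at 24 h, against 6.42% to 6.64% at 0 h. The fallers held 18.0%, 18.1% and 18.0% at 24 h, against 61.2%, 61.6% and 61.3% at 0 h. These genes were chosen in the same 6 libraries, so the gap follows from the choice, but their shares in the other groups do not. In waterlogged 9001 the 4847 risers held 38.2% ± 0.0406 of counts at 24 h and 5.80% ± 0.0177 at 0 h (SD, n = 3 each), and the 4847 fallers held 19.7% ± 0.0176 and 62.9% ± 0.0274. In 4847 controls the risers held 35.1% ± 0.0466 at 24 h and 26.8% ± 0.0218 at 0 h, and the fallers held 19.1% ± 0.0253 and 25.8% ± 0.0291. At 24 h the share of the fallers in drained 4847 roots was close to that in re-lit controls, and the share of the risers was above theirs. The drained 4847 libraries took part in the choice and the controls did not, so this comparison is not free of it. In 9001, which had no part in the choice, re-lit controls held 33.6% ± 0.156 in the 4847 risers and 19.8% ± 0.112 in the fallers. Drained 9001 roots were thus likewise above their controls for the risers and close to them for the fallers.

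The most abundant transcripts were largely replaced. Of the 100 gene IDs with the most counts in waterlogged 4847 at 24 h, 26 were also among the 100 largest at 0 h, and ranked per length, by FPKM, the shared number was 23. Of the 100 largest at 24 h, 64 rose and 7 fell at least 2-fold, and of the 100 largest at 0 h, 3 rose and 81 fell, where 27.5% of all tested genes rose and 23.3% fell. The lists were picked by level at one of the times compared, so an excess of risers in the first and of fallers in the second follows from the choice. Each library's own 100 largest genes held 14.9% ± 0.154 of counts at 24 h and 17.8% ± 0.201 at 0 h. The libraries of the times did not overlap in this share (exact two-sided permutation p = 0.1, n = 3 each, and no lower p can be reached with that number).

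Ghir_D05G038620, a gene ID of the D subgenome with a length of 915 bases in the deposited FPKM, gained the most in level. It had 6694, 6601 and 6639 CPM (counts scaled to a common library size with TMM factors) in waterlogged 4847 at 24 h, against 878, 839 and 864 CPM at 0 h. All 3 libraries of 24 h lay far above all 3 of 0 h, by 2.95 on the log2 scale (SE 0.04, by edgeR with an adjusted p of 4.93e-44). Its level at 24 h was also above that of both 4847 controls, which had 351 ± 14.7 CPM at 24 h and 1430.5 ± 17.3 CPM at 0 h (SD, n = 3 each). In controls the gene was lower at 24 h than at 0 h, so the waterlogged roots moved the other way, and the changes differed by 4.98 on the log2 scale (SE 0.05, edgeR adjusted p = 2.02e-47). Waterlogged 9001 had 1627 ± 53.7 CPM at 24 h and 187 ± 2.67 CPM at 0 h, a rise of 3.13 on the log2 scale. The change in 4847 minus that in 9001 was -0.18 (SE 0.05, edgeR adjusted p = 0.00467). The median change of all tested genes was also lower in 4847, at 0.09 against 0.26 in 9001.

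Ghir_D02G002140, of the D subgenome and 1440 bases long, had the largest fitted rise. It had 28.4, 26.1 and 23.8 CPM in waterlogged 4847 at 24 h, against no count in any of the 3 libraries at 0 h. Set against a floor of 3 counts over the 0 h group, the level at 24 h was at least 623-fold higher (edgeR adjusted p = 7.53e-29). The controls of 4847 held little of it, with 0.192 ± 0.0636 CPM at 24 h and 0.324 ± 0.0260 CPM at 0 h, so it stood above every other 4847 group once the roots were drained. In waterlogged 9001 it reached 92.8, 98.2 and 97.3 CPM at 24 h, against 0.0917, 0 and 0.183 CPM at 0 h. The difference between the varieties in this change was not called (edgeR adjusted p = 0.226), with 0 counts in 4847 and 6 in 9001 at 0 h.

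Ghir_D04G011360, of the D subgenome and 3935 bases long, lost the most in level. It had 1112, 1113 and 1112 CPM in waterlogged 4847 at 24 h, against 15388, 16717 and 16331 CPM at 0 h. The log2 change came to -3.86 (SE 0.04, by edgeR with an adjusted p of 6.16e-47), and the libraries of the times lay far apart. It remained above its controls, which had 290.3 ± 15.0 CPM at 24 h and 216 ± 1.11 CPM at 0 h, by 1.94 on the log2 scale against the 24 h control (SE 0.04, edgeR adjusted p = 3.82e-37). In waterlogged 9001 it had 1178 ± 52.6 CPM at 24 h and 18265 ± 1378 CPM at 0 h. The changes of the varieties differed by 0.09 on the log2 scale (SE 0.05, edgeR adjusted p = 0.148), so no difference passed the test.

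Ghir_A10G023710, of the A subgenome and 1574 bases long, had the largest fitted fall. It had no count in any of the 3 libraries of waterlogged 4847 at 24 h, against 9.85, 11.0 and 8.86 CPM at 0 h. Against the same floor it was at least 196-fold lower at 24 h (edgeR adjusted p = 6.23e-14). No other group came near the 0 h level. Waterlogged 9001 held 3 counts over its 3 libraries at 24 h and 8 counts at 0 h, where waterlogged 4847 at 0 h held 710, and the 4847 controls held 4 counts at 24 h and 0 at 0 h. The files give no function for these 4 IDs, and since many cotton genes exist as near-identical copies in both subgenomes, how reads were divided between copies is uncertain.

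**Figure D1:**
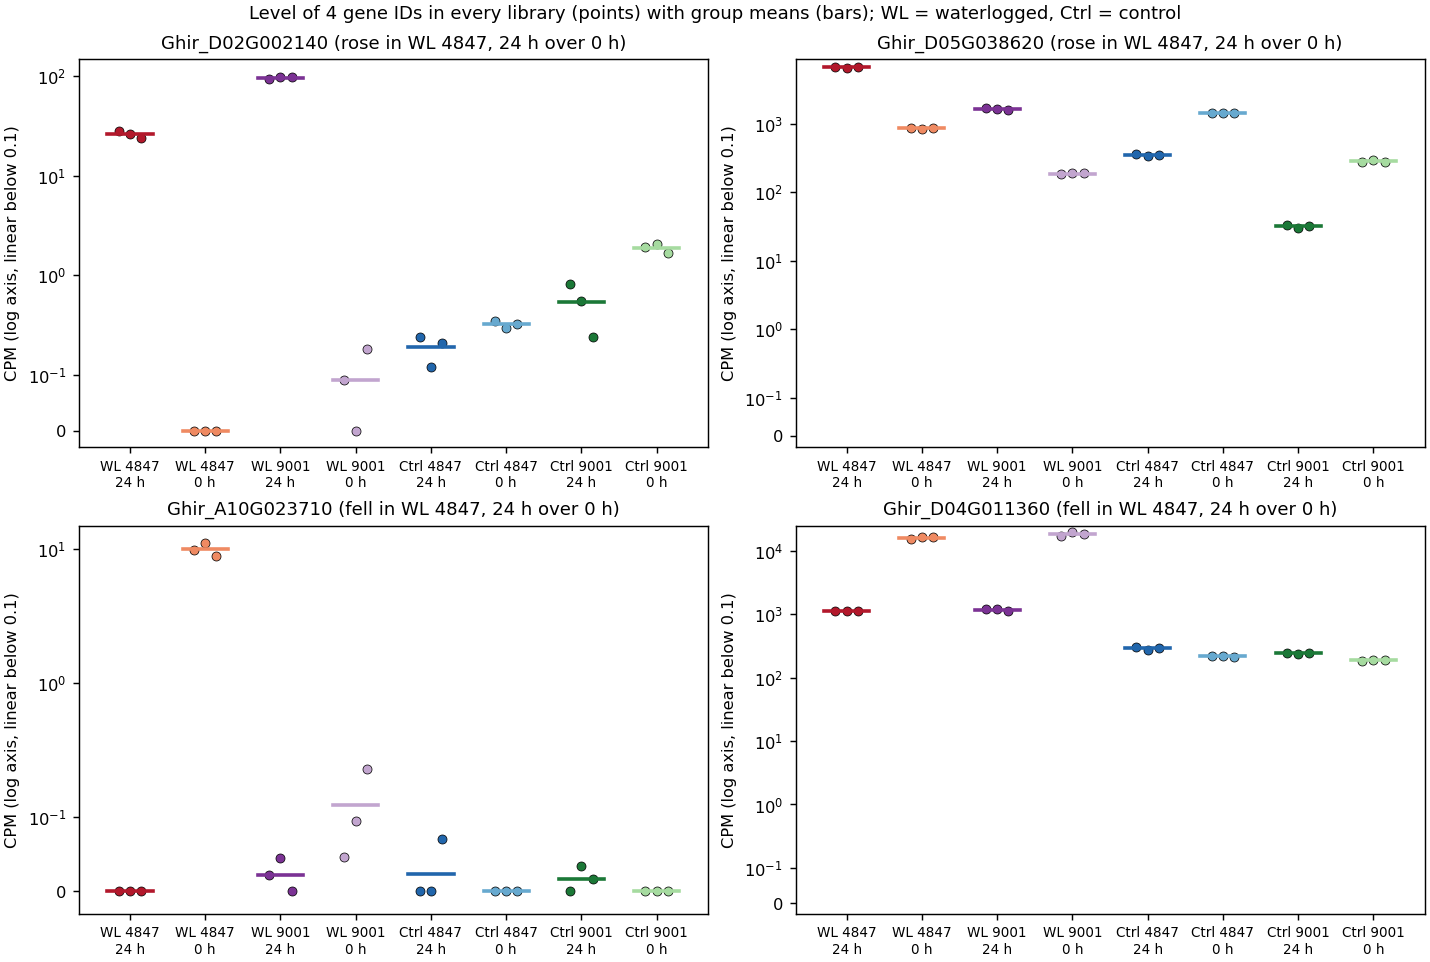
Level of the 4 gene IDs in each of the 24 libraries, in TMM-scaled CPM on an axis that is logarithmic above 0.1 and linear below it. Points are libraries and bars group means, with waterlogged 4847 at 24 h and 0 h at the left of each panel. Ghir_D02G002140 lies at 0 in waterlogged 4847 at 0 h and between 23.8 and 28.4 CPM at 24 h, and Ghir_A10G023710 lies between 8.86 and 11.0 CPM at 0 h and at 0 at 24 h.

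Genes were seldom switched fully on or off. Only 9 genes with no count in the 3 libraries of 0 h averaged at least 5 CPM in waterlogged 4847 at 24 h, and 6 genes with no count at 24 h averaged at least 5 CPM at 0 h. With the minimum at 1 CPM each number was 80. Of the 80 switched on, 62 averaged at least 1 CPM in waterlogged 9001 at 24 h, 0 in waterlogged 9001 at 0 h, 44 in 4847 controls at 24 h and 9 in 4847 controls at 0 h. Of the 80 switched off, 79 were among the tested genes. Of these 79, 2 averaged at least 1 CPM in waterlogged 9001 at 24 h and 61 in waterlogged 9001 at 0 h. In 4847 controls 3 did so at 24 h and 3 at 0 h. Among all tested genes, 76.2% averaged at least 1 CPM in waterlogged 9001 at 24 h, 67% in waterlogged 9001 at 0 h, 77.9% in 4847 controls at 24 h and 69.5% at 0 h. With the 6 libraries thinned to 21423479 counts each, 120 genes were switched on and 78 off at 1 CPM. Thinning evened out the totals but not the TMM factors, which averaged 0.897 at 24 h and 0.654 at 0 h. At the same CPM a gene thus had fewer counts at 0 h, which makes a 0 count easier to reach there. These numbers are therefore not free of depth.

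Genes that waterlogging moves mostly moved the other way in recovery. To avoid choosing genes in the libraries that are compared, the response to waterlogging was taken from variety 9001 at 0 h, waterlogged over control, a comparison that shares no library with the recovery of 4847. There, 13065 genes (25.8% of those tested) had risen and 15076 (29.8%) had fallen at least 2-fold, and by adjusted p alone 36.1% were higher and 40.7% lower. Of the genes that had risen, 56.1% fell in waterlogged 4847 from 0 h to 24 h and 9.67% rose, against 23.3% and 27.5% of all tested genes. Of the genes that had fallen, 54.2% rose and 4.61% fell. The median log2 changes were -1.36 for the first class and 1.30 for the second, with the same signs under RLE scaling and under library totals, beside 0.01 for the 22497 genes in neither class and 0.09 for all tested genes. Each of the 3 libraries of 24 h was also set against the mean of the 0 h libraries in log2 CPM. They gave close class medians, with SDs of 0.00488 and 0.0138, which leave out the spread of the 0 h libraries.

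The dark-to-light change of the controls was added to this, and both classifications counted. In 4847 controls, which share no library with waterlogged 4847, 14286 genes (28.2%) rose and 9201 (18.2%) fell from 0 h to 24 h. Genes that waterlogging had lowered in 9001 and that rose in the controls had the highest median change in recovering 4847, 2.01 on the log2 scale over 4225 genes, and 63.8% of them rose. Where the controls did not move, genes lowered by waterlogging had a median of 1.19 over 7988 genes, and where the controls fell it was 0.74 over 2863 genes. Genes that waterlogging had raised and that fell in controls had the lowest median, -1.65 over 2419 genes, and 66.1% of them fell. Where the controls rose, genes raised by waterlogging still had a median of -1.11 over 4058 genes, and 46.2% of them fell while 13.1% rose. Each of the 3 classes lowered by waterlogging had a positive median and each of the 3 raised by it a negative one, whatever the controls had done.

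**Figure D2:**
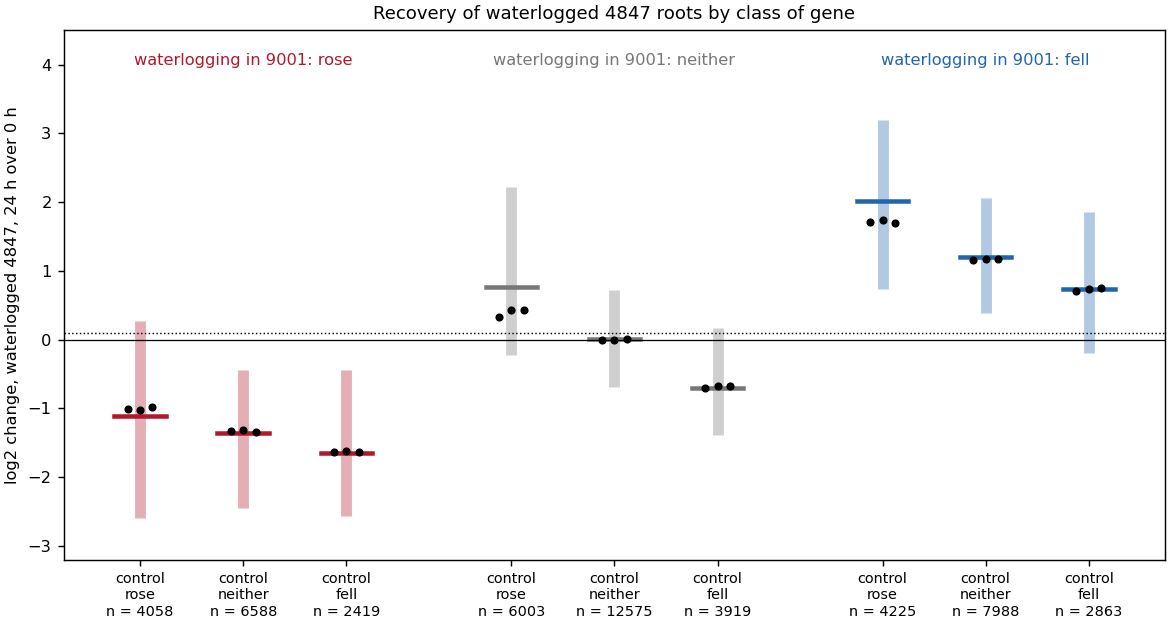
Log2 change of waterlogged 4847 roots, 24 h over 0 h, in 9 classes of genes defined by the waterlogging response of 9001 at 0 h (colour) and the 0 h to 24 h change of 4847 controls. Horizontal bars are medians of the fitted change, shaded bars the middle 50% of genes, points the class median in each 24 h library against the mean of the 0 h libraries on a log2 CPM scale that pulls low genes towards 0, and the dotted line the median of all tested genes. Medians lie below 0 in the 3 red classes, from -1.65 to -1.11, and above 0 in the 3 blue classes, from 0.74 to 2.01.

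A further 12575 genes had no 2-fold call for waterlogging in 9001 or for the control change in 4847. Among them, 1987 (15.8%) rose and 1813 (14.4%) fell at least 2-fold in recovering 4847. The shares over all tested genes were 27.5% and 23.3%, and the class median was 0.01. Where waterlogging had made no 2-fold change but the controls rose, 34.0% of 6003 genes rose in recovering 4847 and 8.26% fell, with a median of 0.76. Where the controls fell, 12.0% of 3919 genes rose and 37.7% fell, with a median of -0.70.

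The change in recovering roots was tested against the change in controls over the same 24 h. It differed at least 2-fold for 24705 genes (48.8% of those tested), with the higher change in waterlogged roots for 12542 (24.8%) and the lower for 12163 (24.0%) (edgeR, adjusted p under 0.05). The larger side turned with the scaling and the tool, to 11035 higher and 13371 lower under RLE, 12236 and 12365 under library totals, and 11281 and 14562 by DESeq2. Of the 13936 risers of recovering 4847, 5269 (37.8%) also rose in controls, 6719 had no 2-fold call there and 1948 (14%) fell there. Among all tested genes 28.2% rose and 18.2% fell in controls. For 5176 of the 6719 and all of the 1948 the difference itself passed at 2-fold. Of the 11813 fallers, 3328 (28.2%) also fell in controls, 5955 had no 2-fold call and 2530 (21.4%) rose there. The difference passed for 4031 of the 5955 and all of the 2530. Opposite 2-fold calls lie more than 2-fold apart by definition. For the 1948 and the 2530 the size of the difference thus follows from the choice. Another 6487 genes rose in controls without a 2-fold call in waterlogged roots. Their median change was 0.05 in waterlogged roots and 2.90 in controls, and the difference passed for 3717 of them. This class, like those above, was chosen by the changes compared, so the gap between its medians follows from the choice. Of the 6487, 583 had no count in the 6 waterlogged 4847 libraries, and without these the medians were 0.22 in waterlogged roots and 2.70 in controls.

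Drained 4847 roots stood nearer to controls still in the dark than to re-lit controls of their own time. Each library's distance to a group mean was taken as the root mean square difference in log2 CPM over all tested genes. The libraries of waterlogged 4847 at 24 h lay 2.18, 2.16 and 2.15 from the 24 h control of 4847 and 1.72, 1.70 and 1.69 from its 0 h control. They lay 1.89, 1.87 and 1.87 from waterlogged 4847 at 0 h, and the shortest distance to another group was to waterlogged 9001 at 24 h, with 1.40, 1.36 and 1.36. The libraries of a group did not overlap between any of these distances. Distances to both 4847 controls were shorter at 24 h than at 0 h, with means of 2.16 and 2.68 to the 24 h control and 1.70 and 2.10 to the 0 h control (exact two-sided permutation p = 0.1 each, n = 3 each, the lowest p possible here). Waterlogged 9001 at 24 h had the other order, 1.47 ± 0.00202 from its own 24 h control and 1.73 ± 0.00368 from its own 0 h control (SD, n = 3).

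**Figure D3:**
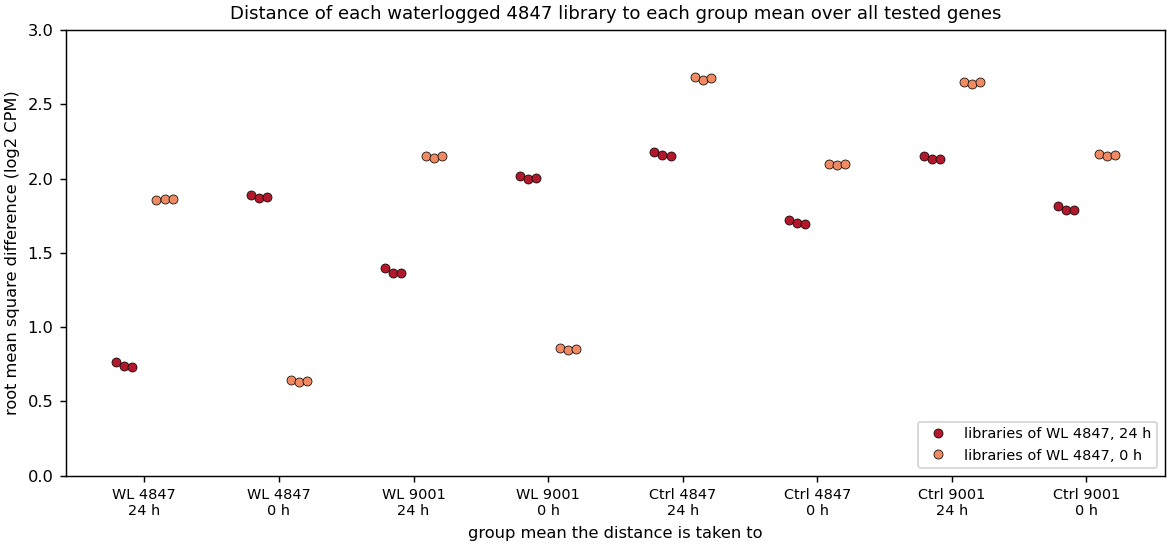
Root mean square difference in log2 CPM over 50638 tested genes between each waterlogged 4847 library (points; dark red for 24 h, orange for 0 h) and each of the 8 group means, with a library left out of its own group's mean. The 24 h libraries lie between 1.69 and 1.72 from the 0 h control of 4847 and between 2.15 and 2.18 from the 24 h control, and every 0 h library is farther from both controls.

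Against the dark control, 10820 genes (21.4%) were at least 2-fold higher and 9492 (18.7%) at least 2-fold lower in waterlogged 4847 at 24 h. Against the control of the same time, 9846 (19.4%) were higher and 14071 (27.8%) lower. Genes that waterlogging had raised in 9001 were still above the dark control in drained 4847 roots, with a median log2 difference of 0.91 and 43.5% of them at least 2-fold higher. Against the re-lit control their median was 0.63, with 38% higher, and it turned to -0.04 when counts were scaled by library totals alone. That scaling also moved the median of all tested genes against the re-lit control, to -0.82 beside -0.11 with TMM, so the class lay above all tested genes under both. Genes that waterlogging had lowered were still below, with medians of -0.70 against the dark control, where 38.1% were lower, and -0.80 against the re-lit control, where 42.9% were lower. Among genes that waterlogging had not moved 2-fold, 17.4% were higher and 13.7% lower than in the dark control, and 15.6% were higher and 24.0% lower than in the re-lit control. Scaled by library totals alone, the split turned against the dark control, to 9212 higher and 12038 lower, and against the re-lit control it became 5867 and 21830.

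Recovery in the sensitive variety was set beside recovery in the tolerant one, where 17381 genes (34.3%) rose and 12689 (25.1%) fell at least 2-fold in waterlogged 9001 from 0 h to 24 h. The comparisons share no library. Of the 13936 risers of 4847, 10825 (77.7%) also rose in 9001, which is 62.3% of the 9001 risers. Of the 11813 fallers of 4847, 8751 (74.1%) also fell in 9001, which is 69.0% of the 9001 fallers. Opposite 2-fold calls were few, with 176 genes that rose in 4847 and fell in 9001 and 407 that fell in 4847 and rose in 9001. The median size of the log2 change over all tested genes was 1.21 in 4847 and 1.43 in 9001. Across the 50638 genes, which are not independent replicates and share the scaling of their libraries, the changes correlated at a Pearson r of 0.711 and a Spearman rho of 0.736.

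The difference between the recoveries was then tested directly. In 4847 the change was higher by 2-fold or more for 5677 genes (11.2% of those tested) and lower by as much for 7488 (14.8%), by edgeR at adjusted p under 0.05. The most frequent kind was a rise in 9001 that had no 2-fold call in 4847. There were 6149 such genes, with a median log2 change of 0.47 in 4847 and 2.21 in 9001, and the difference passed for 2894 of them. Of the 6149, 310 had no count in the 6 waterlogged 4847 libraries, and without these the medians were 0.51 and 2.11. Genes that fell in 9001 with no 2-fold call in 4847 numbered 3762, with medians of -0.58 and -1.49, and the difference passed for 1652. In the other direction, 2935 genes rose in 4847 with no 2-fold call in 9001, with medians of 1.60 in 4847 and 0.51 in 9001, and the difference passed for 1444. A further 2655 fell in 4847 with no 2-fold call in 9001, with medians of -1.71 and -0.42, and the difference passed for 1355. All of these classes were sorted by calls made in the very libraries compared here. Unequal medians are therefore largely built in, and the numbers that passed are no independent test of them. Among the 10825 shared risers the change was at least 2-fold lower in 4847 for 1783 and higher for 584.

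The split of these differences depended strongly on the scaling. Genes with the higher change in 4847 were 43.1% of the 2-fold differences with TMM and 44.3% with RLE scaling, and 13.1% with library totals, where 2183 were higher and 14543 lower. In the recovery of 9001 risers were 57.8% of the 2-fold calls with TMM and 82.3% with library totals. The TMM factors averaged 0.897 in waterlogged 4847 at 24 h and 0.654 at 0 h, and 1.22 and 0.584 in waterlogged 9001.

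**Figure D4:**
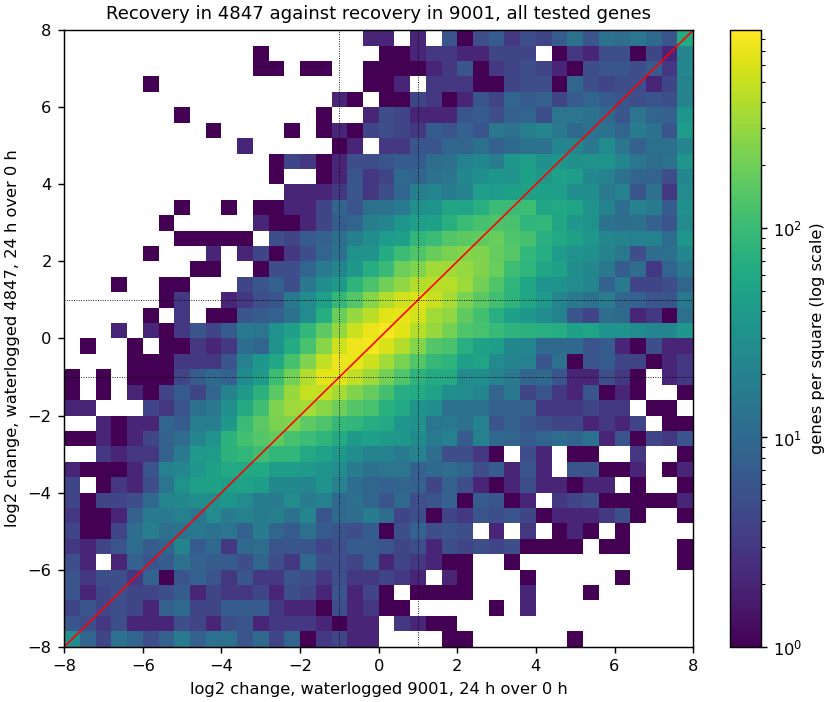
Log2 change from 0 h to 24 h in waterlogged 4847 (vertical) against that in waterlogged 9001 (horizontal) for 50638 tested genes, as the number of genes per square on a log colour scale, with values beyond the axes placed in the outermost squares. The red line marks equal change and dotted lines 2-fold. The changes follow the direction of the line, and where the change in 9001 was large, that in 4847 was often smaller in size. Of the 340 genes at the right with a change over 4 in 9001 and within 0.2 of 0 in 4847, 285 had no count in any of the 6 waterlogged 4847 libraries, where the fit gives a change of 0.

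Gene length and level went with the direction of change. Length was taken from the ratio of the deposited counts and FPKM. The median length was 1800 bases for the risers, 1977 for the fallers and 1898 for all tested genes. In the longest of 10 equal bins of genes, over 3815 bases, 20.4% rose and 30.0% fell, and in the bin between 1119 and 1383 bases 32.0% rose and 21.0% fell. In the shortest bin, up to 806 bases, 24.4% rose and 27.6% fell. By mean level over all 24 libraries, 20.3% of the highest bin rose and 39.9% fell, with a median log2 change of -0.60. The 24 libraries include those compared, so a high level at 0 h can itself help to place a gene in the highest bin. In the bin between 1.78 and 3.19 CPM 36.0% rose and 21.1% fell, with a median of 0.43. In the lowest bin 15.5% rose and 17.1% fell, and few counts limit the calls there. The part of length or level in the changes of single genes was not tested.

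**Figure D5:**
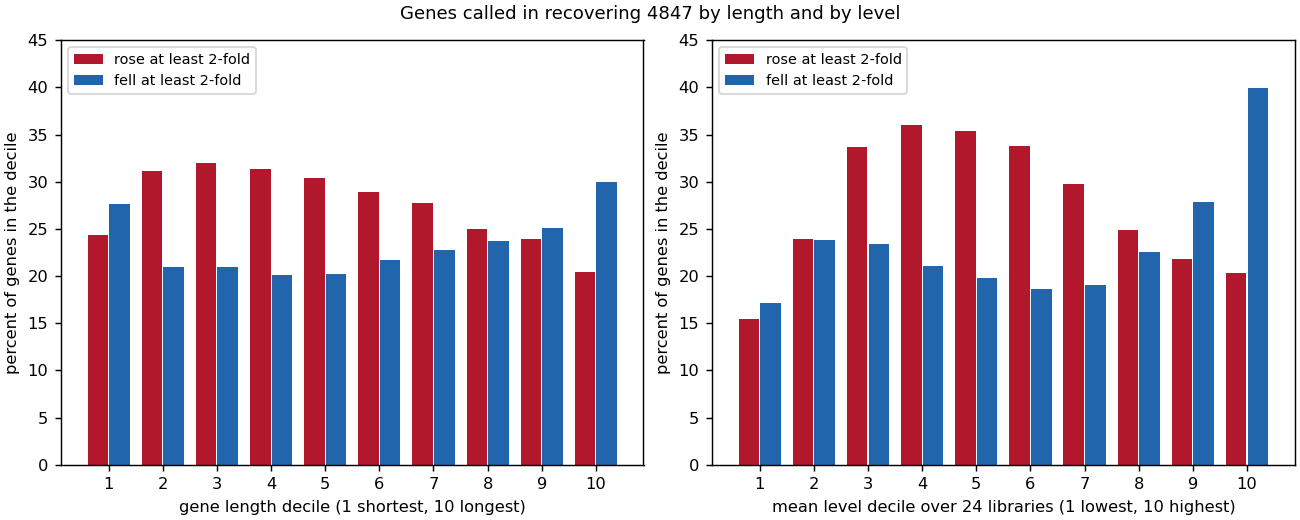
Percent of genes that rose (red) or fell (blue) at least 2-fold in waterlogged 4847 from 0 h to 24 h, in 10 equal bins of all tested genes by length (left) and by mean CPM over the 24 libraries (right). Fallers outnumber risers in the longest bin (30.0% against 20.4%) and most clearly in the bin with the highest level (39.9% against 20.3%).

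The A and D subgenomes of cotton gave close shares of risers and fallers. Of 24904 tested genes with an A chromosome in their ID, 27.4% rose and 23.5% fell, and of 25734 with a D chromosome, 27.7% rose and 23.2% fell. Over the 26 chromosomes the share of risers ran from 25.6% on A05 to 29.4% on D04 and D13, and the share of fallers from 21.8% on A09 and D01 to 24.9% on A05. All 26 lay within a few percentage points of the shares of all tested genes, 27.5% and 23.3%.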

How the data were processed

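Per the labels' protocols, total RNA of roots was extracted with a Qiagen kit and sequenced after a SMARTer mRNA library preparation. The authors deposited whole-number counts for 60633 gene IDs, used as deposited, and FPKM for the same IDs, scaled by library totals and gene length as checked on the values, with 1 malformed FPKM line left out. The submitters' processing notes name mm10, a mouse assembly, so the build behind these cotton IDs is unknown, and for aligner, counter and strand use the entry is "not given in the sources used here". Totals ran from 21423479 to 39945111 counts per library, and their number limits precision for low genes. Whether replicate libraries stand for different plants is not stated in the labels. The p-values therefore cover library-to-library spread alone, some of it possibly technical.

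All 24 libraries entered one edgeR 4.0.16 fit (R 4.3.3) with a coefficient per group, TMM scaling and edgeR's default filter on low counts, which kept 50638 genes and left 16 residual degrees of freedom. Calls used a Benjamini-Hochberg adjusted p under 0.05 over all tested genes and a fitted change of at least 2-fold. Standard errors were derived from each change and its F statistic. A level of 0 counts was bounded at 3 counts over the group. Permutation tests used scipy 1.17.1. Data were simulated for this comparison with each group's own spread and only 100 genes changed at each size, far fewer than were called here. The fit on all 24 libraries recovered 37 of 100 genes changed 1.5-fold and 70 of 100 changed 3-fold. It made 275 false calls among 49932 unchanged genes, 43 of them at 2-fold, so false calls outnumbered the recovered genes. The fit on 6 libraries recovered 21 and 62 of 100, with 6 false calls among 37756. With so few genes changed, these rates do not carry over to the calls in the real data. Alternatives were RLE scaling, library totals, no filter, DESeq2 1.42.0, limma 3.58.1 on log2(FPKM + 1) and log2(FPKM + 0.1), thinning, a replicate block, only the libraries compared and each library left out.

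Named are the ID with the largest fitted change and the ID with the largest change in mean CPM in each direction, among called genes whose libraries did not overlap and whose higher group averaged at least 5 CPM. The pathway and cell type lists could not be applied without gene names. The comparison, classes and rules were chosen with earlier results of these data known.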

Additional observations from a re-analysis of the deposited data

Results flagged for a closer look

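Recovery of waterlogged roots differed between the varieties by direct test. The change from 0 h to 24 h was at least 2-fold higher in 4847 than in 9001 for 5677 genes and at least 2-fold lower for 7488 (edgeR, adjusted p under 0.05). Of the IDs named above, Ghir_D05G038620 rose by 0.18 less in 4847 than in 9001, a log2 difference of -0.18 (SE 0.05, edgeR adjusted p = 0.00467). All 3 libraries were higher at 24 h than at 0 h in each variety. The median change of all tested genes was also lower in 4847, at 0.09 against 0.26 in 9001 with TMM. With library totals it was 0.54 against 1.31. Whether this gene differed beyond that offset was not tested. Ghir_A10G023710 differed by a fitted -9.25 (edgeR adjusted p = 0.00225), a value that depends on the prior count because waterlogged 4847 at 24 h had no counts and waterlogged 9001 had 3 at 24 h and 8 at 0 h.

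Recovery also differed from the change of 4847 controls, with the higher change in waterlogged roots for 12542 genes and the lower for 12163. The log2 difference was 4.98 for Ghir_D05G038620 and -4.28 for Ghir_D04G011360, with edgeR adjusted p of 2.02e-47 and 2.79e-44. It was a fitted 13.71 for Ghir_D02G002140 and -14.59 for Ghir_A10G023710, with edgeR adjusted p of 7.43e-17 and 8.02e-06, and both sizes depend on the prior count since a group was at 0 counts.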

How the results depend on the processing

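For waterlogged 4847 at 24 h against 0 h, leaving out each library in turn gave 13649 to 13753 risers and 11674 to 11797 fallers, and every other comparison stayed within 1.5 times its count without any 1 library. Replicate numbers did not pair the samples: same-numbered libraries of the times had correlations of their deviations of -0.00488, -0.0115 and -0.0107. With the replicate block 13843 genes rose and 11743 fell, and no named ID lost its call in recovering 4847 under this or any other alternative. Scaled by library totals alone, the difference between varieties became 2183 higher and 14543 lower genes, drained 4847 against its re-lit control 5867 and 21830, and the recovery of 9001 27339 and 5865. With limma on log2(FPKM + 1), which shrinks low genes by construction, 4723 genes fell in recovering 4847, 1442 had the higher change in 4847 than in 9001, 7538 the higher change than controls, 4664 were above and 5926 below the dark control, 4134 were above the re-lit control, and 3844 fell in recovering 9001. With log2(FPKM + 0.1), 7760 fell in recovering 4847, 2257 were higher and 16495 lower in 4847 than in 9001, 5539 were above and 21337 below the re-lit control, and 5526 fell in recovering 9001. Relative to the median of all tested genes, the class raised by waterlogging stood at -1.45 (-1.45 to -1.41 leaving out libraries), the class lowered by it at 1.21 (1.22 to 1.23) and the rest at -0.0831 (-0.0862 to -0.0432, with -0.0546 under RLE and -0.0820 under library totals). With classes by adjusted p alone these were -1.11, 0.89 and 0.0212, the last with its sign turned. Genes switched on numbered 14 after thinning, and 80 on and 80 off at 1 CPM. The distance of drained 4847 to its re-lit control exceeded that to its dark control by 0.46, and by 0.64 with library totals, 0.35 over genes above the median level and 0.43 after thinning, alternatives added after seeing the data. In 9001 it was -0.26, with -0.13 over genes above the median level and -0.24 after thinning. Against the other alternatives, DESeq2 and no filter moved no count by more than 1.5 times, and the cause of the scaling differences was not tested. Depth limits the lowest genes, most of all in the 24 h libraries of waterlogged 4847.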

Other observations

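A set of genes reached a level in drained 4847 roots that no other 4847 group had. In waterlogged 4847 at 24 h, 2667 genes (5.27% of those tested) were at least 2-fold higher than in waterlogged 4847 at 0 h, in the 24 h control and in the 0 h control, and 1641 (3.24%) were at least 2-fold lower than in all 3. The median level of the first set was 17.1 CPM in waterlogged 4847 at 24 h, 2.85 CPM in waterlogged 4847 at 0 h, 1.63 CPM in the 24 h control and 1.92 CPM in the 0 h control. The sets were chosen in these libraries, so those gaps follow from the choice. In libraries that had no part in it, 1521 of the 2667 (57%) also rose in waterlogged 9001 from 0 h to 24 h. Another 108 (4.05%) fell, and the shares of all tested genes were 34.3% and 25.1%. Every gene of the set was also a 4847 riser. Among all 4847 risers, 77.7% rose in 9001 and 1.26% fell, so the set was shared less often than the risers it came from. Waterlogging at 0 h in 9001 had raised 963 of the 2667 (36.1%) and lowered 402 (15.1%), beside 25.8% and 29.8% of all tested genes. Of the 1641 low genes, 598 (36.4%) also fell in waterlogged 9001 and 241 (14.7%) rose, beside the same 25.1% and 34.3%. Among all 4847 fallers, 74.1% fell in 9001 and 3.45% rose, so the low genes too were shared less often.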
